A study of Mus musculus with 7 samples.

Results

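Glycolysis, gluconeogenesis and the steps that lead pyruvate into the mitochondrion were followed through 35 genes in Paneth cells sorted from mouse small intestine. Paneth cells sit at the bottom of the crypts, where they secrete antimicrobial peptides and support the neighbouring stem cells. The genes were chosen by name, as the enzymes and regulatory kinases of these pathways, out of 19938 genes that had a transcript cluster, the unit in which the array reports a gene, annotated to 1 symbol. Of the 35, 31 had such a cluster, and the brightest was used for each gene. Gapdh lay only on clusters that name several genes, and Gpi1, Eno1 and Pfkfb1 were not matched to a cluster. Of the 31, 30 passed a filter on dim genes and were tested. Hk3 did not, with a mean of 6.56 in the calorie-restricted and 6.58 in the ad libitum arrays, where the filter level was 6.79.

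RNA came from Paneth cells of mice aged 4 months that ate freely (ad libitum, 3 arrays) or were given 60% of the calories of free feeding (calorie restricted, 4 arrays). Diets lasted 4 to 7 weeks, and cells were collected by flow cytometry. The labels name no strain, genotype, sex or fasting state at collection, and do not say whether cells of several mice were pooled. All values are deposited log2 expression values, and a difference is calorie restricted minus ad libitum, in log2 units, with its standard error (SE) from the fit over all genes. Levels are compared between arrays and never between genes.

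Glycolysis splits glucose into pyruvate, with hexokinase, phosphofructokinase and pyruvate kinase as its irreversible steps. Gluconeogenesis runs the other way and bypasses these steps with pyruvate carboxylase, phosphoenolpyruvate carboxykinase, fructose bisphosphatase and glucose 6-phosphatase. The small intestine is among the tissues that express gluconeogenic enzymes, and its absorptive cells take up dietary fructose and phosphorylate it with ketohexokinase. Pyruvate becomes lactate through lactate dehydrogenase, or acetyl-CoA through the pyruvate dehydrogenase complex, which pyruvate dehydrogenase kinases switch off.

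The 1 gene of this set that passed the test encodes a gluconeogenic enzyme. Fbp1, the liver-type fructose bisphosphatase, rose 1.79-fold under calorie restriction and was the 1 member of 30 called higher, with 0 called lower (limma, adjusted p below 0.05). Over all 13409 genes tested, 0.656% were called higher and 0.00746% lower, so the 3.33% of the members called higher rests on 1 gene. The differences were positive in 26 of the 30 members and in 54.2% of all genes, and their median was 0.165, against 0.0147 over all genes. The 26 include Hk1, at 0.003 on a cluster of doubtful identity, and the other Hk1 cluster differed by -0.18. Of the 30, 8 (26.7%) had an unadjusted p below 0.05, as did 9.30% of all genes. The calorie-restricted arrays all lay above the ad libitum arrays in 5 members (Fbp1, Fbp2, Khk, Pkm and Pfkl) and all below in 1 (Pfkfb2), where 7.14% of all genes had groups apart in the higher and 3.03% in the lower direction. None of the 30 differed by 2-fold or more.

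The 6 gluconeogenic enzymes had positive differences throughout, from 0.14 to 0.81 besides Fbp1, and 1 of the 6 passed. Fbp1 was at 10.87, 11.30, 10.91 and 11.12 in calorie restricted replicates 1 to 4 and at 10.01, 10.23 and 10.40 in ad libitum replicates 1 to 3. The lowest calorie-restricted array lay 0.47 above the highest ad libitum array. The means were 11.05 ± 0.20 (SD, n = 4) and 10.22 ± 0.20 (SD, n = 3), a difference of 0.84 ± 0.14 (SE, adjusted p = 0.0430). An exact two-sided permutation test over the 35 splits of the arrays gave p = 0.0286, the smallest that the design allows, which any gene with groups apart gives. Leaving out ad libitum replicate 3 kept the call (adjusted p = 0.0465), and leaving out any other single array ended it (adjusted p from 0.0702 to 0.185), as did quantile normalization (adjusted p = 0.0595). The difference stayed between 0.73 and 0.93 over all 17 alternatives.

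Fbp2, the muscle-type fructose bisphosphatase, is the next protein-coding gene to Fbp1 on chromosome 13 in the RefSeq annotation of assembly GRCm38.p6. Its values were 11.03, 11.05, 10.98 and 11.04 under calorie restriction and 10.79, 10.90 and 10.97 under free feeding. The groups were apart by 0.0043, at a difference of 0.14 ± 0.07 (95% interval -0.03 to 0.31, adjusted p = 0.653). That interval lies below the 0.53 to 1.15 of Fbp1, but the difference between the 2 genes was not tested.

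The sequences upstream of the starts of these neighbouring genes are shown because 1 of the pair passed the test, and that of Khk because it came next. Each is the 250 bases before the RefSeq start, with matches on either strand in capitals to a TATA box (TATAAA), a GC box (GGGCGG), an E box (CACGTG), the core of a hypoxia response element (ACGTG, which every E box contains) and the core of an HNF1 site (GTTAAT).
Fbp1, chr13:62888283-62888532, minus strand: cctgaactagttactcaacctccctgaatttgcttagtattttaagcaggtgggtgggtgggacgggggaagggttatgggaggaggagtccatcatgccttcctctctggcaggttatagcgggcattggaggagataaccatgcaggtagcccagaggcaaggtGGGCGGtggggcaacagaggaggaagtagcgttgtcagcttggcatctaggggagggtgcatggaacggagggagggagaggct
Fbp2, chr13:62858401-62858650, minus strand: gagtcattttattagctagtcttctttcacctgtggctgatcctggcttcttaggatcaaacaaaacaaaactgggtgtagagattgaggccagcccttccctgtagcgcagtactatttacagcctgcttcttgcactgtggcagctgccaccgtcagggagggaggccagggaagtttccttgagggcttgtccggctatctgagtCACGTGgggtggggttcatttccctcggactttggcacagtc
Khk, chr5:30921309-30921558, plus strand: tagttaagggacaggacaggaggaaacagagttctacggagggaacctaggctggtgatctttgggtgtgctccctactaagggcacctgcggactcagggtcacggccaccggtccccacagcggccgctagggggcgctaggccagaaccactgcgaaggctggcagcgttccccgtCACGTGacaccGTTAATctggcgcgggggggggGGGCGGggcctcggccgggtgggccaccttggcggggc

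The Fbp1 window holds 1 GC box and no match to the other motifs, the Fbp2 window 1 E box, and the Khk window an E box, an HNF1 core and a GC box. All 35 genes had entries, with 55 start sites among them. A GC box lay in 47.3% of the 55 windows and in 32.7% of all 32851 windows in the table, an E box in 14.5% against 6.02%, and the hypoxia core in 36.4% against 16.6%. The HNF1 core was found in 9.09% against 6.43%, upstream of G6pc, Khk, Pck1, Pdha1 and Pfkfb1, and the TATA box in 3.64% against 12.4%. The windows of the members were also richer in G and C (median 58.4% against 52.4%). A match is a description of the letters and not a bound site.

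The enzymes that start gluconeogenesis varied more between arrays of 1 diet. Pck1, the cytosolic phosphoenolpyruvate carboxykinase, was at 10.35, 10.73, 10.76 and 10.06 under calorie restriction and at 10.32, 9.61 and 9.54 under free feeding. Ad libitum replicate 1 overlapped the calorie-restricted arrays, and the difference of 0.65 ± 0.23 did not pass (adjusted p = 0.415). Pck2, the mitochondrial form, was at 10.28, 9.54, 9.93 and 10.27 against 9.23, 9.61 and 9.97, a difference of 0.40 ± 0.22 (adjusted p = 0.683). The calorie-restricted arrays with the highest Pck2, replicates 1 and 4, had the lowest Pck1, and among the ad libitum arrays replicate 1 had the highest Pck1 and the lowest Pck2. The mean of 2 cycling-cell markers (Mki67 and Top2a) was 11.0 and 11.4 in calorie restricted replicates 1 and 4, and 10.5 and 10.4 in replicates 2 and 3. It was 9.85, 11.0 and 11.3 in ad libitum replicates 1 to 3, and its part in the Pck2 values was not tested.

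G6pc, the catalytic subunit that releases free glucose, had the widest spread of the members. It was at 7.33, 7.82, 8.81 and 7.57 under calorie restriction and at 7.18, 6.41 and 7.62 under free feeding. Calorie restricted replicate 3 stood highest and ad libitum replicate 2 lay below the filter level, and the difference was 0.81 ± 0.38 (95% interval -0.07 to 1.69, adjusted p = 0.594). Pcx, pyruvate carboxylase, was at 9.15 ± 0.22 against 8.83 ± 0.33 (n = 4 and 3), a difference of 0.32 ± 0.18 that did not pass.

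**Figure D1:**
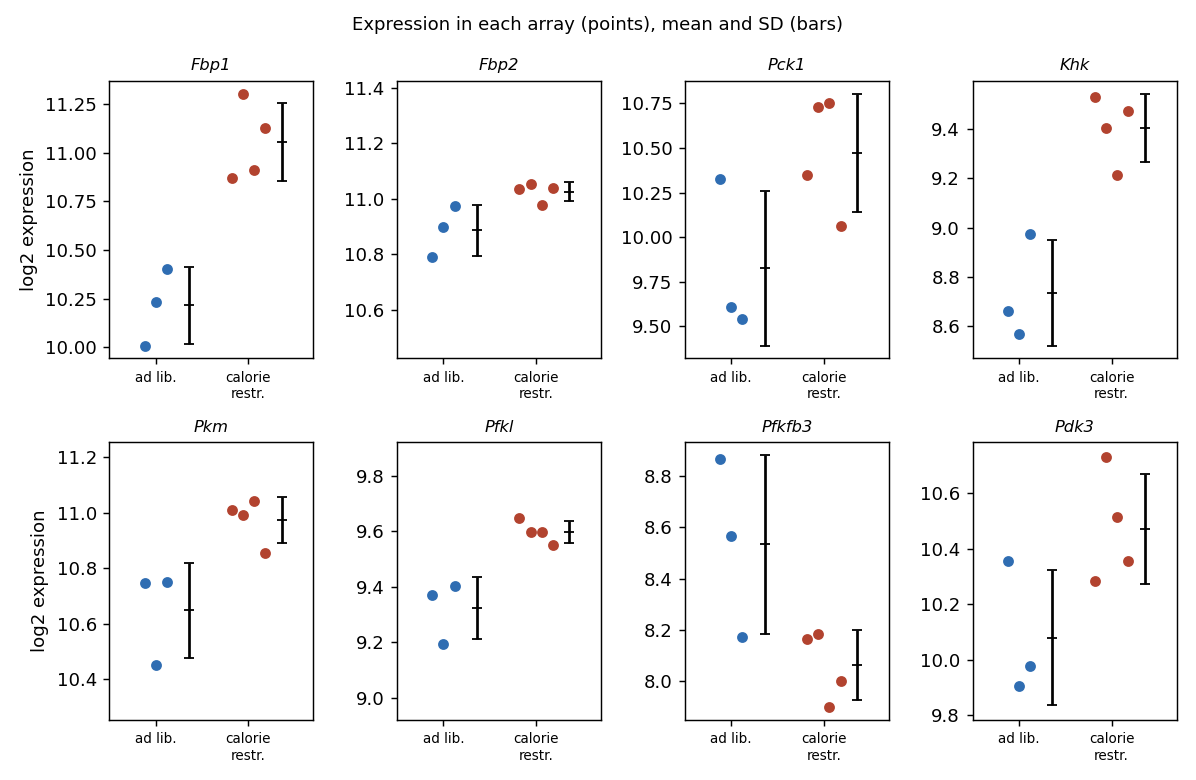
Log2 expression in each array (points; y axes differ between panels) for 8 genes, with the mean and SD beside each group of 3 ad libitum and 4 calorie-restricted arrays. The groups are apart for Fbp1, Fbp2, Khk, Pkm and Pfkl and overlap for Pck1, Pfkfb3 and Pdk3.

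Fructose handling rests on 1 member. Khk, ketohexokinase, which phosphorylates fructose, was at 9.53, 9.41, 9.21 and 9.47 under calorie restriction and at 8.66, 8.57 and 8.98 under free feeding. The groups did not overlap, and the means of 9.41 ± 0.14 and 8.73 ± 0.21 differed by 0.67 ± 0.13 (95% interval 0.38 to 0.96), or 1.59-fold. Khk missed the threshold over all genes (adjusted p = 0.0692). Of 17 alternatives, 13 also left it uncalled (limma, adjusted p up to 0.469). It passed after centring arrays on their medians (adjusted p = 0.0469) and with array weights (adjusted p = 0.00836). Leaving out ad libitum replicate 3 (adjusted p = 0.0448) or using a block described below (adjusted p = 0.0229) had the same outcome. Over all genes, 88 were called higher in the main fit, 110 after median centring and 963 with array weights.

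Fructose handling was extended with genes outside the 35, picked by role with earlier results of these data known. Tkfc, the triokinase of fructose breakdown, had a difference of 0.41 ± 0.14 (adjusted p = 0.380), and its lowest calorie-restricted array lay 0.0009 above its highest ad libitum array. Slc2a5, the fructose carrier of the brush border, was at 10.56, 10.75, 10.50 and 10.41 against 10.59, 10.05 and 9.93, a difference of 0.37 ± 0.16 that did not pass (adjusted p = 0.553).

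Within glycolysis, no isoform passed the test. Hexokinases trap glucose in the cell, and neither of the 2 tested passed. Hk2 was at 9.70, 9.70, 9.58 and 9.54 against 9.84, 9.74 and 9.57, a difference of -0.08 ± 0.10 (95% interval -0.31 to 0.14), and its sign turned after median centring. Hk1 was at 13.10, 13.21, 13.12 and 13.17 against 13.05, 13.16 and 13.23, a difference of 0.00 ± 0.07, but the identity of this cluster is doubtful. It was the brighter of 2 clusters named Hk1, and 16 further clusters, with means from 11.77 to 13.25, name Hk1 together with the ribosomal protein gene Rpl17. The other Hk1 cluster was at 8.35, 8.84, 8.64 and 8.09 under calorie restriction and at 9.16, 8.58 and 8.24 under free feeding, where the groups overlap and the means differ by -0.18.

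The 10 other glycolytic genes tested had positive differences, from 0.04 to 0.37, and 0 passed over all genes, with 3 at an unadjusted p below 0.05 (limma). Pkm, pyruvate kinase M, which makes pyruvate in the last step, was at 11.01, 10.99, 11.04 and 10.85 under calorie restriction and at 10.75, 10.45 and 10.75 under free feeding. The groups were apart, by 0.11 between the nearest arrays, and the difference was 0.33 ± 0.10 (95% interval 0.10 to 0.55, adjusted p = 0.289). These values and the test are those of the brighter of 2 Pkm clusters. The second Pkm cluster was at 10.34, 10.42, 10.44 and 10.35 against 10.14, 10.01 and 10.15, a difference of 0.29 with its groups apart. Which of the 2 clusters lies at the Pkm gene itself, and not at a copy elsewhere in the genome, was not checked. The M1 and M2 splice forms of pyruvate kinase were not told apart.

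The phosphofructokinases commit sugar to glycolysis, and whether the diet differences of the 3 forms differ from each other was not tested. Pfkl, the liver type, was at 9.65, 9.60, 9.60 and 9.55 against 9.37, 9.19 and 9.40. Its groups were apart, at a difference of 0.28 ± 0.09 (adjusted p = 0.311). Pfkm, the muscle type, was at 8.57, 8.69, 8.55 and 8.77 against 8.62, 8.66 and 8.51, a difference of 0.04 ± 0.09 with overlapping groups. Pfkp, the platelet type, was at 10.31, 9.72, 9.84 and 10.22 against 9.64, 9.56 and 10.12, a difference of 0.25 ± 0.19. Its high arrays under calorie restriction, replicates 1 and 4, were also those with the highest Pck2.

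The enzymes of the middle of the pathway followed with smaller shifts or wider spread. Pgam1, phosphoglycerate mutase, had a difference of 0.28 ± 0.11 (adjusted p = 0.462) and Pgk1, phosphoglycerate kinase, 0.24 ± 0.12. Of the 3 Pgk1 clusters, 2 held identical values, as did 2 of the 3 Pgam1 clusters, and probes of these genes can bind processed copies elsewhere in the genome. The aldolases were at 0.37 ± 0.17 for Aldoc, the brain type, and 0.04 ± 0.09 for Aldoa, the muscle type. Tpi1, triosephosphate isomerase, had a difference of 0.19 ± 0.10 and Eno3, the muscle enolase, 0.15 ± 0.11. The 25 clusters that name Gapdh beside other genes, and so were not tested, had differences between 0.11 and 0.16.

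The lactate dehydrogenases interconvert pyruvate and lactate. Ldha was at 13.14, 13.06, 13.03 and 13.16 under calorie restriction and at 12.98, 12.86 and 13.06 under free feeding, a difference of 0.13 ± 0.07 (95% interval -0.03 to 0.30). Its values lie in the upper part of the array's range, where differences can be compressed. Ldhb was dim, at 6.92, 6.91, 6.86 and 6.85 against 6.63, 6.52 and 7.01, and its difference of 0.16 ± 0.11 did not pass. Its ad libitum mean, 6.72, lay below the filter level, so it passed the filter only through the calorie-restricted arrays, and without it 25 of 29 members had positive differences, with a median of 0.166.

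The bifunctional PFKFB enzymes make and break the sugar bisphosphate that activates phosphofructokinase and inhibits fructose bisphosphatase. Of the 3 tested, 0 passed and 1 had an unadjusted p below 0.05 (limma). Pfkfb3, the form with the highest ratio of kinase to phosphatase activity, was at 8.17, 8.18, 7.90 and 8.0 under calorie restriction and at 8.86, 8.56 and 8.17 under free feeding. Ad libitum replicate 3 lay among the calorie-restricted arrays, and the difference was -0.47 ± 0.16 (95% interval -0.85 to -0.09, adjusted p = 0.391). Without that array the difference was -0.65, and without ad libitum replicate 1 it was -0.305.

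Pfkfb2 was at 9.74, 9.69, 9.84 and 9.77 against 9.85, 10.00 and 9.88. It was the member whose calorie-restricted arrays all lay below the ad libitum arrays, by 0.0080 at the nearest, at a difference of -0.15 ± 0.08 (adjusted p = 0.676). Pfkfb4 had a difference of the other sign, 0.15 ± 0.09, at 9.32, 9.22, 9.24 and 9.28 against 9.04, 9.27 and 9.03, and its groups overlapped.

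Of the 6 genes of pyruvate entry tested, 0 passed and 1 had an unadjusted p below 0.05 (limma). The 3 subunits of the complex among them did not pass. Pdha1, the catalytic alpha subunit, was at 11.69 ± 0.03 against 11.71 ± 0.08, a difference of -0.02 ± 0.07 (95% interval -0.17 to 0.14). Pdhb, its beta partner, had a difference of 0.07 ± 0.11 and Dlat, the acetyltransferase core, 0.14 ± 0.11. Among pathway genes outside the 35, named after their values were seen to complete the complex, Dld, its dehydrogenase subunit, had a difference of 0.16 ± 0.10. Pdhx, which holds Dld in the complex, had one of 0.23 ± 0.10 (adjusted p = 0.520), with its groups apart by 0.0077.

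Of the member kinases that inactivate the complex, Pdk3 had the largest difference. Pdk3 was at 10.28, 10.73, 10.51 and 10.36 under calorie restriction and at 10.36, 9.90 and 9.98 under free feeding. Ad libitum replicate 1 overlapped the other group, and the difference was 0.39 ± 0.15 (adjusted p = 0.437). Pdk2 was at 11.36, 11.44, 11.32 and 11.12 against 11.25, 11.20 and 10.99, a difference of 0.17 ± 0.10. Pdk1 was at 9.35, 9.24, 9.02 and 9.53 against 9.29, 9.35 and 9.21, a difference of 0.00 ± 0.12 (95% interval -0.29 to 0.29).

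Around these members, a list of 48 further genes of glucose, fructose and pyruvate metabolism was examined, of which 35 were tested. Of the 35, 0 were called in either direction and 12 (34.3%) had an unadjusted p below 0.05 (limma), against 9.30% of all genes. Positive differences were found in 28 (80%), against 54.2% of all genes, and the median was 0.16, against 0.0147. Pdk4, the kinase of this family known for its induction by fasting, was at 9.84, 10.10, 10.90 and 9.71 under calorie restriction and at 7.80, 7.20 and 8.98 under free feeding. The groups were apart, at a difference of 2.14 ± 0.43 (adjusted p = 0.0891), and the ad libitum arrays alone spanned 1.78.

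Glucose carriers of absorptive cells were also apart between the diets. Slc5a1, the sodium-glucose cotransporter of the brush border, was at 12.44, 12.21, 12.21 and 12.24 against 11.63, 11.06 and 11.64 (difference 0.83 ± 0.15, adjusted p = 0.0570). Slc2a2, which carries glucose and fructose across the basolateral side, was at 10.37, 10.46, 10.12 and 9.94 against 9.30, 8.19 and 8.95 (difference 1.41 ± 0.25, adjusted p = 0.0580). Both missed the threshold. Slc37a4, which carries glucose 6-phosphate into the endoplasmic reticulum for G6pc, was at 10.42 ± 0.09 against 9.92 ± 0.16 (n = 4 and 3), a difference of 0.50 ± 0.10 (adjusted p = 0.0880). Pgm1, phosphoglucomutase, had a difference of 0.33 ± 0.10 (limma, adjusted p = 0.262) with its groups apart. Gpd1, the cytosolic glycerol phosphate dehydrogenase, had one of 0.55 ± 0.16 (adjusted p = 0.271), and its groups overlapped.

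**Figure D2:**
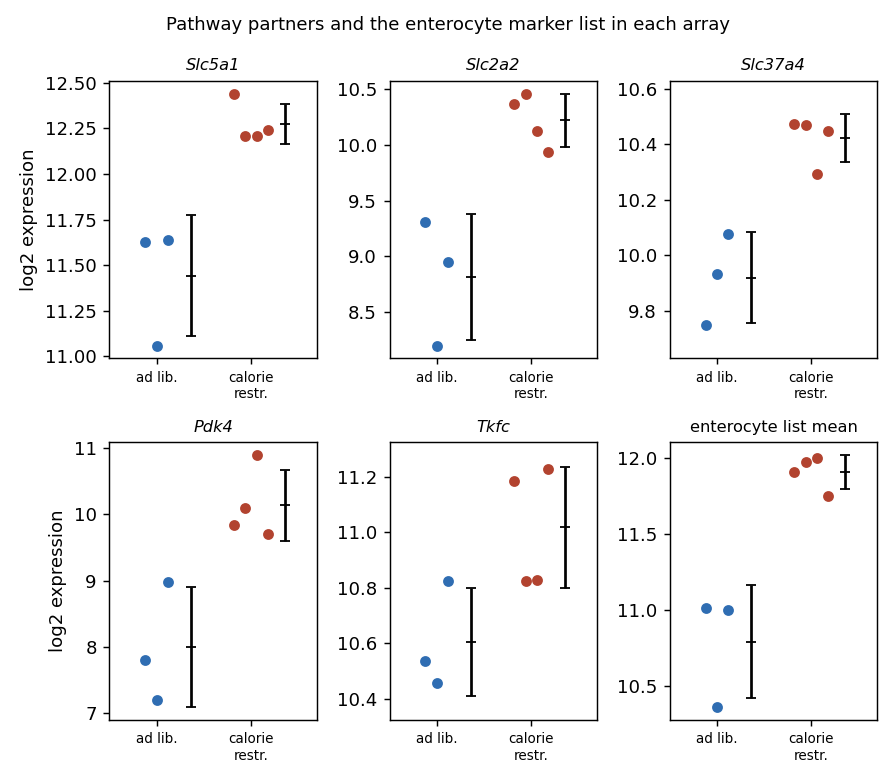
Log2 expression in each array (points; y axes differ between panels), with mean and SD, for 5 pathway partners and for the mean of 24 enterocyte markers in the last panel. In the last panel the ad libitum arrays lie between 10.4 and 11.0 and the calorie-restricted arrays between 11.8 and 12.0.

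Markers of enterocytes, the absorptive cells, moved with the diets. Of 24 tested enterocyte markers, a list without any pathway gene named above, 11 were called higher and 0 lower, with a median difference of 1.08. Over all genes, 0.656% were called higher and 0.00746% lower. The mean of the 24 was 11.9, 12.0, 12.0 and 11.8 under calorie restriction and 11.0, 10.4 and 11.0 under free feeding. The 24 differences ran from -0.02 for Lypd8 to 2.73 for Cyp3a11, and 23 of them were positive. Of the 11 called, Alpi, intestinal alkaline phosphatase, was at 12.07 ± 0.15 against 10.53 ± 0.60. Fabp2, the intestinal fatty acid binding protein, also called, was at 13.19 ± 0.08 against 12.12 ± 0.33. Enterocytes also express Fbp1, Khk, Pck1, G6pc and the glucose carriers, and in a bulk sample more cells of a type and more RNA per cell cannot be told apart. The part of this list in the differences of Fbp1, Khk and their partners was not tested. Of 12 Paneth cell markers 0 were called, 1 had an unadjusted p below 0.05 (limma), and 10 differences were negative, with a median of -0.05. Lyz1, lysozyme, was at 14.31 in both groups, near the top of the array's range, and marks the labelled cell type. The gene at an unadjusted p below 0.05 was Mptx1, a mucosal pentraxin, at 10.60 ± 0.79 against 12.02 ± 0.63 with its groups apart, a difference of -1.42 ± 0.44 (adjusted p = 0.311). Of the 4 stem cell, 4 goblet, 5 enteroendocrine, 3 tuft, 3 leukocyte and 2 cycling-cell markers tested, 0 were called. Among them, 3 had an unadjusted p below 0.05 (limma), 1 of the 4 goblet (25%) and 2 of the 5 enteroendocrine markers (40%), against 9.30% of all genes. They were Muc2 (difference -0.20, groups apart), Gcg (0.28) and Cck (0.30). The differences were negative in all 4 goblet and 3 tuft markers and positive in all 5 enteroendocrine and 2 cycling-cell markers. Stem cell and leukocyte markers had both signs.

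The arrays also fell into classes by their overall level, for which the labels give no reason. The array medians were 7.24 to 7.29 in calorie restricted replicates 1 to 3 and ad libitum replicate 1, and 7.42 to 7.44 in calorie restricted replicate 4 and ad libitum replicates 2 and 3. Within the lower class the difference was 1.02 for Fbp1, 0.72 for Khk and 0.27 for Pkm, and within the higher class 0.81, 0.70 and 0.26. The difference of Pck1 was 0.29 and 0.49, that of Pfkfb3 -0.78 and -0.37, and that of Aldoc -0.02 and 0.47. Both classes gave a positive difference in 21 of the 30 members and a negative one in 3, and the signs were opposite in 6. Each class holds 1 array of 1 of the diets, so these values carry no test. With the class as a block, an alternative added after seeing the data, Fbp1 (adjusted p = 0.00856), Khk (adjusted p = 0.0229) and Tpi1 (adjusted p = 0.0480) were called higher. Over all genes this block called 348 higher and 168 lower, against 88 and 1 in the main fit, so the calls are not particular to the members.

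**Figure D3:**
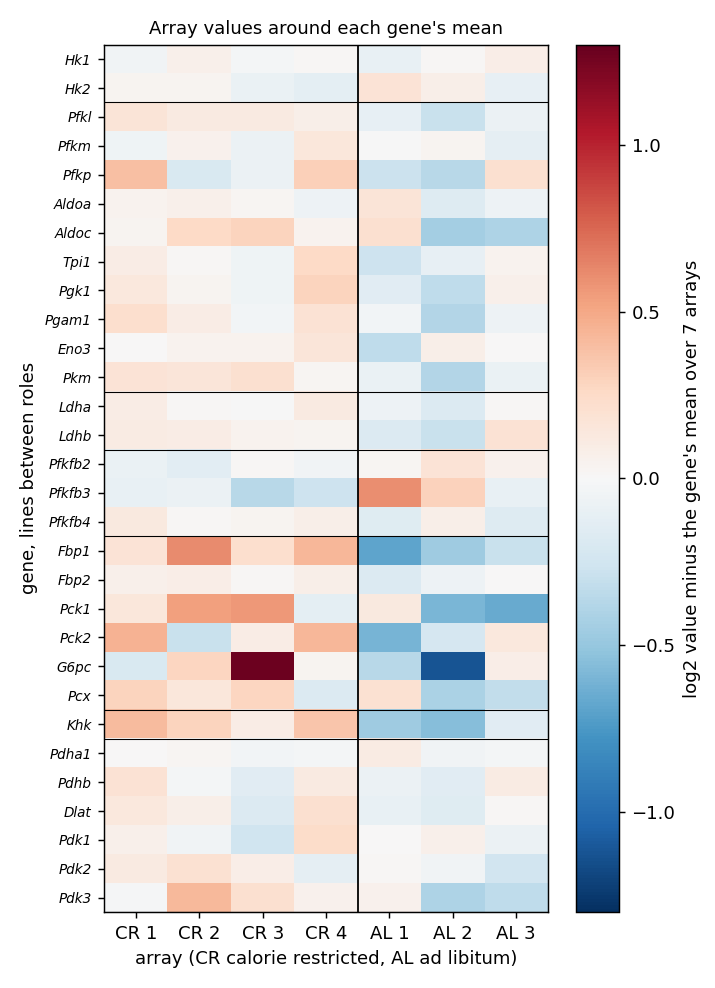
Log2 value of each tested gene in each array minus that gene's mean over the 7 arrays (colour scale in log2 units), with genes in rows by role and arrays in columns. Ad libitum replicate 2 holds the lowest value in 14 of the 30 genes, and G6pc spans the widest range.

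Among single arrays, ad libitum replicate 2 held the lowest value in 14 of the 30 members and the highest in 1, and it also had the lowest enterocyte mean (10.4). Calorie restricted replicate 1 held the highest value in 8 and the lowest in 0. The median deviation of the members from their own means was between 0.02 and 0.10 in the calorie-restricted arrays and between -0.17 and -0.06 in the ad libitum arrays.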

How the data were processed

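Total RNA (10 ug) of sorted Paneth cells was labelled with biotin and hybridised to 1 Affymetrix array per sample, per the labels' protocols. In the deposited table the authors give log2 expression per transcript cluster. The submitters' processing notes name Affymetrix Expression Console. Its algorithm and normalization, and the build, are not stated in those notes, and the log2 scale was inferred from the range. The values were used without further scaling, and the number of arrays limits the precision.

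Of 35556 clusters, the platform annotation gave 1 symbol to 21789. For each of 19938 genes the brightest such cluster was kept, and a gene had to reach a mean of 6.79, the 40th percentile over all clusters. For the diets, lmFit and eBayes of limma (3.58.1, in R 4.3.3) were used with an intensity trend, without covariates, with Benjamini-Hochberg adjustment over 13409 genes and a threshold of 0.05, after a check on simulated data. The labels call the arrays biological replicates, numbered in each diet.

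The members and lists were chosen with earlier results of these data known. Values in every array are given for Fbp1, Pkm, Khk, called members, the 2 members of each role with the smallest p, and some paralogs of these, and for G6pc, chosen after its spread was seen. Pathway genes named are the 6 with the smallest p, partners fixed by role, and Dld, Pdhx and Me1, which were named after their values were seen. Mki67, Top2a, Alpi, Fabp2 and Lyz1 come from the marker lists and were picked as examples. Promoters are from RefSeq (GRCm38.p6). Figures were drawn with matplotlib (version 3.10.9).

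Alternatives were quantile normalization, median centring, dropping the filter or raising it to the 60th percentile, averaged clusters, eBayes without trend or robust, array weights, the replicate number as a block, and omission of each array; a block on array median class was added after seeing the data.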

Additional observations from a re-analysis of the deposited data

How the results depend on the processing

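Of the 30 members, 25 kept the sign of their difference in every one of the 17 alternatives that measured them; the other 5 had differences near 0. Hk1 turned negative after quantile normalization (-0.0315), with the mean of all clusters (-0.0906), with array weights (-0.00649) and with the replicate block (-0.003), and ran from -0.0449 to 0.0446 without 1 array. Hk2 was at 0.00224 after median centring. Aldoa was at -0.044 with the array median class as a block and ran from -0.0356 to 0.13 without 1 array. Pdha1 was at 0.0685 after median centring and 0.0329 with array weights, and ran from -0.0477 to 0.0282. Pdk1 was at -0.0851 with array weights and -0.0803 with the replicate block, and ran from -0.0803 to 0.0873. The Fbp1 difference was 0.792 after quantile normalization and 0.814 with the replicate block, without passing (adjusted p = 0.0595 and 0.191), and 0.734 to 0.932 without 1 array.

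Members called higher numbered 0 after quantile normalization and with the replicate block (limma, 7 and 8 at an unadjusted p below 0.05), 2 after median centring, 9 with array weights, 3 with the median class as a block and 0 to 2 without 1 array. Deviations from the group means of same-numbered arrays correlated at -0.126, -0.265 and -0.55 over genes. Those of differently numbered arrays ran from -0.731 to 0.641, so these values cannot decide whether the replicate numbers pair samples. The main fit used no pairing. With the replicate block the calls over all genes fell to 0, with 988 at an unadjusted p below 0.05 (limma). None of the members was called lower in any alternative. Over all genes, 88 were called higher, against 53 after quantile normalization, 963 with array weights, 0 with the replicate block, 348 with the median class and 12 to 97 without 1 array. The 1 called lower became 0 after quantile normalization, median centring, the 60th percentile filter or the replicate block, 2 without a filter, 392 with array weights, 168 with the median class and 0 to 9 without 1 array. Array weights and the median class also raised the calls over all genes, so the members' counts there are read against 963 and 348. Median centring moved the median of all genes by 0.0867, to 0.101, and that of the members from 0.165 to 0.252. The causes were not tested. No detection call was used, so levels near the filter, as in Hk3 and Ldhb, have no stated background.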

Other observations

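Among the pathway genes outside the members, Me1, the cytosolic malic enzyme that turns malate into pyruvate, was picked out after its values were seen. It was at 11.12 in ad libitum replicate 1, 9.02 and 9.11 in ad libitum replicates 2 and 3, and between 8.73 and 9.66 in the calorie-restricted arrays. The other arrays thus lay at least 1.46 below that 1 array, and the diet difference of -0.52 ± 0.49 did not pass (limma, adjusted p = 0.836). The same array held the lowest mean of the cycling-cell markers (9.85) and the highest Pfkfb3 (8.86).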
